A study of Mus musculus with 17 samples.

Results

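Vip interneurons are inhibitory neurons that make the neuropeptide precursor Vip, and they were examined here in nuclei from the posterior brain of 17 mice. Nuclei carrying the deposited label Neurons, not called doublets and outside cluster 13 of the deposited clustering at resolution 0.4, were kept when they held 3 or more unique molecular identifiers (UMIs, counted RNA molecules) of Gad1 plus Gad2. That sum also had to exceed 2 times the UMIs of Slc17a7 plus Slc17a6, the transporters of glutamate-releasing neurons. Nuclei with 5 or more UMIs of Adarb2, 1 or more of Vip and at most 1 of Sst were then taken as Vip nuclei. The rule found 451 nuclei of 284074, which is 0.159% of all nuclei, 0.316% of the 142659 neuronal nuclei and 3.96% of the 11386 GABAergic nuclei that met the same label, cluster and Gad criteria. The values of these genes chose the nuclei and are given below as descriptions without a test.

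Vip interneurons arise from the caudal ganglionic eminence together with other Adarb2 neurons, in contrast to the Sst and parvalbumin interneurons of the medial ganglionic eminence, which carry Sox6. In the cortex many of them inhibit other inhibitory neurons, so that their activity releases excitatory cells from inhibition. They receive strong neuromodulatory input and respond to acetylcholine and serotonin. Malat1, the RNA the treatment was aimed at, is an abundant noncoding RNA of the nucleus, where antisense oligonucleotides (ASOs) that recruit RNase H can cut it.

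All mice were females aged 2.3 months, with the labelled genotype hTfR KI HOM, in which the human gene for the transferrin receptor (TfR) is knocked in on both copies, and all received 4 weekly intravenous doses. Of the 17 mice, 4 received saline, with the same dose text in their labels as the conjugates, and 4 received the bare Malat1 ASO at an ASO-equivalent dose of 2 mg/kg. A further 6 received anti-TfR:Malat1 at 50 mg/kg (labelled TfR-Malat1 on the samples), in which an antibody to the receptor carries the ASO, and 3 received OTV:Malat1 at 50 mg/kg, in which an engineered transport vehicle that binds the receptor carries it. Tissue was snap frozen 72 h after the last dose, and nuclei were sorted on DAPI before droplet capture, so the RNA is nuclear. The knock-in is shared by every group, and the labels name no mouse without it.

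The number of Vip nuclei per mouse ran from 12 to 49, and the UMIs summed over them from 40562 to 231903 per mouse. The median nucleus held 3974 UMIs and 1935 genes. The saline mice gave 44, 36, 14 and 19 nuclei, the ASO mice 49, 20, 12 and 21, the anti-TfR:Malat1 mice 33, 46, 45, 13, 19 and 24, and the OTV:Malat1 mice 13, 24 and 19. The deposited batch column, whose meaning the labels do not give, puts saline, ASO and anti-TfR:Malat1 mice in each of 4 batches and an OTV:Malat1 mouse in batches 2, 3 and 4. One library stood apart from its label: the library labelled Malat1 ASO replicate 1 held 0 UMIs of Xist, the RNA that coats the inactive X chromosome of females, among 219062 UMIs in Vip nuclei, against 842 to 1750 CPM (counts per 1000000 UMIs) in the other 16 libraries. Y-linked genes gave 3 or fewer UMIs in every library, and the main ASO comparisons (Malat1, the share of nuclei and the called genes) are also given without that library. Of the 451 nuclei, 39 (8.65%) carried a barcode that also occurred in another library, against 7.16% of all nuclei, and 0 barcodes were shared between Vip nuclei.

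The label held for markers that the rule did not use, with a limit at the lowest Vip counts. Synpr, a synaptic vesicle protein enriched in caudal interneurons, was at 1787 CPM (SD 319, n = 17 mice) in Vip nuclei, 241 CPM in the 3611 Adarb2 nuclei without a Vip UMI and 354 CPM in the 1744 Sst or Sox6 nuclei. Its lowest mouse, at 947 CPM, lay above the highest mouse of either other class (457 and 488 CPM). The 7 caudal interneuron markers outside the rule, of which Synpr gave most, summed to 2177 CPM. They summed to 377 CPM in Adarb2 nuclei without Vip and 386 CPM in Sst or Sox6 nuclei, so the sum does not separate those 2 classes. The 4 medial interneuron markers other than Sst and Sox6 summed to 46.2 CPM, against 54.1 CPM and 417 CPM in the same 2 classes. Sox6, which did not choose the Vip nuclei, was at 12.7 CPM against 72.1 CPM in Adarb2 nuclei without Vip. Of the 451 nuclei, 394 (87.4%) lay in the deposited cluster 1, which also held 2247 of the 3611 Adarb2 nuclei without Vip. CPM levels below are UMIs summed over a mouse's nuclei of a class, per 1000000 UMIs of all genes there, averaged over the 17 mice, and a comparison is made only for one gene between classes. No test accompanies these class comparisons, because the nuclei were picked by their own RNA.

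The amount of Vip RNA split the nuclei. A single Vip UMI was found in 193 nuclei (42.8%), 2 or more in 258 and 4 or more in 136. A Vip UMI was also seen where the gene should be silent, in 342 of 12593 excitatory nuclei (2.72%, exact 95% interval 2.44 to 3.01, median depth 6373 UMIs) and in 32 of 1441 Sox6 nuclei without Sst (2.22%, 1.52 to 3.12, median depth 5701 UMIs). Oligodendrocytes had one in 2076 of 71388 nuclei (2.91%, 2.79 to 3.03) at a median depth of 1249 UMIs, so at a higher rate per UMI than those neurons. The share among all Adarb2 nuclei, 451 of 4062 (11.1%), was several times those shares without adjustment for depth. That share includes nuclei with 2 or more Vip UMIs. Exactly 1 was held by 193 of the 4062, a smaller excess over the other classes, and how many of these 193 carry a stray UMI was not tested. Counts of 2 or more UMIs occurred in 16 of the excitatory nuclei, 1 of the Sox6 nuclei and 81 of the oligodendrocytes. The intervals cover counting error only. At the edges of the rule, 15 members had 5 to 7 Adarb2 UMIs while 10 nuclei met all other criteria with 3 or 4, and 181 members had a Gad1 plus Gad2 sum of 3 while 284 nuclei met all other criteria with a sum of 2. The same gene criteria were met by 234 nuclei that carry a deposited doublet call and were left out.

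Nuclei with a single Vip UMI had levels between those of Adarb2 nuclei without Vip and those of nuclei with more Vip. Adarb2 itself was at 6575 CPM in nuclei with 0 Vip UMIs, 10234 with 1, 15993 with 2 to 3 and 20931 with 4 or more. Synpr went with it, at 238, 1102, 2378 and 2382 CPM, and so did Igf1, a growth factor made by many Vip cells, at 109, 277, 411 and 642 CPM. Crh, the precursor of corticotropin-releasing hormone, stood at 3.34, 31.2, 65.4 and 106 CPM. Genes of other Adarb2 neurons were lower in nuclei with 2 or more Vip UMIs. Reln, a secreted protein of Lamp5-type and related neurons, was at 714, 556, 116 and 57.8 CPM, the cadherin Cdh18 at 1034, 500, 63.3 and 67.4 CPM, and the transcription factor Foxp2 at 288, 142, 4.09 and 3.21 CPM. Meis2, a homeobox factor, was at 310 CPM without Vip, 229 CPM with 1 UMI, 2.04 CPM with 2 to 3 and listed at 0 with 4 or more. Summed Lamp5 and Sncg interneuron markers ranged over mice from 24.1 to 1238 CPM in Vip nuclei. Malat1 levels in most comparisons and most of the called genes below are therefore also given for nuclei with 2 or more Vip UMIs. The share of nuclei low in Malat1 is not.

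**Figure D1:**
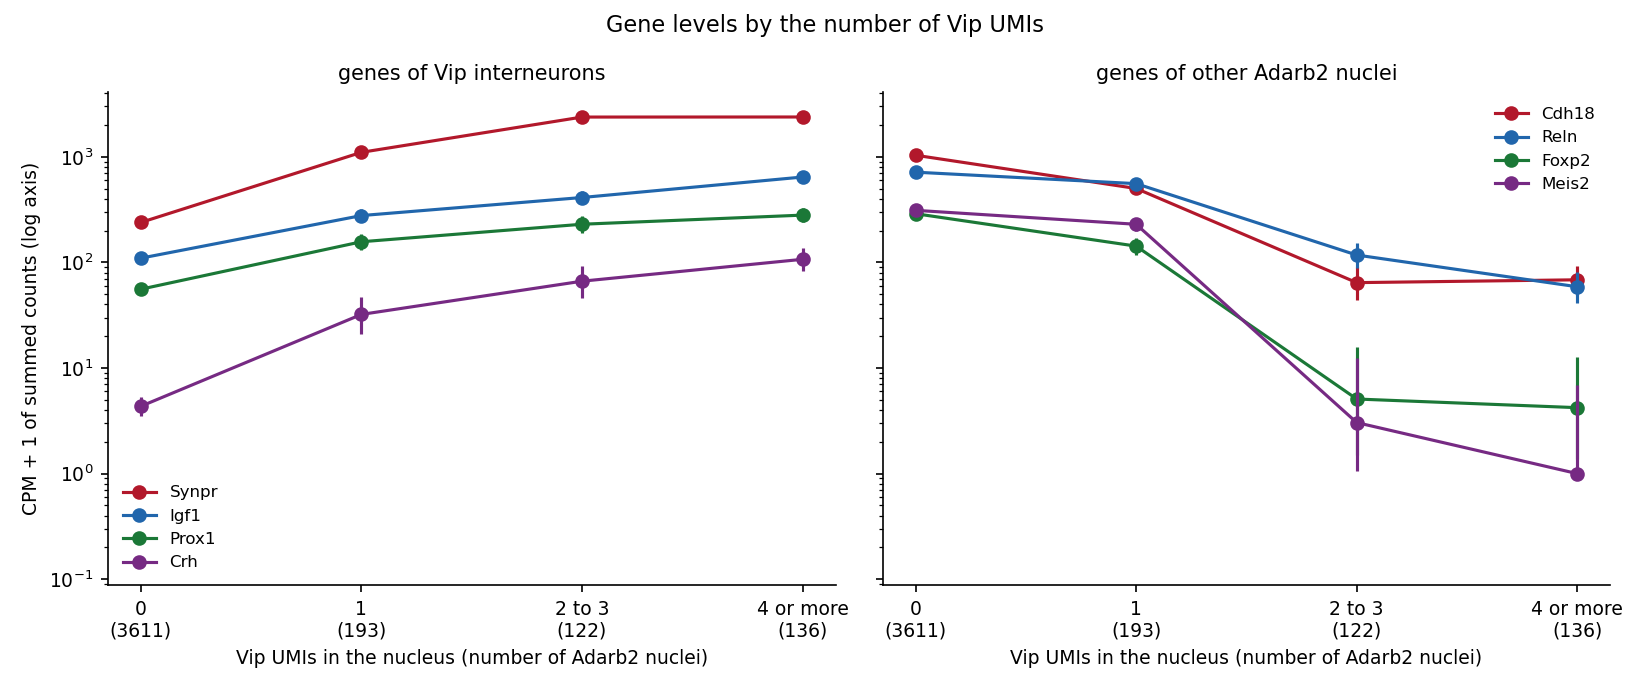
Levels of 8 genes (CPM plus 1, log axis) in Adarb2 GABAergic nuclei with 0, 1, 2 to 3 and 4 or more Vip UMIs, pooled over the 17 mice, with 95% Poisson intervals that cover counting error only. Synpr, Igf1, Prox1 and Crh stand higher with more Vip UMIs, while Cdh18, Reln, Foxp2 and Meis2 stand lower with 2 or more Vip UMIs than with 0 or 1, and the 193 nuclei with 1 UMI lie between.

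Among transcription regulators, Vip nuclei stood above the other Adarb2 nuclei for 12 of 14 list members, which summed to 4468 CPM against 1880 CPM. Prox1, a homeobox factor needed for the maturation of caudal interneurons, was at 220 CPM (SD 61.0), 54.7 CPM in Adarb2 nuclei without Vip and 7.22 CPM in Sst or Sox6 nuclei. It was higher in Vip nuclei in 17 of 17 mice in both comparisons. The antisense gene Prox1os (68.1 CPM) overlaps it, so the split of reads between both is uncertain. Npas3, a neuronal helix-loop-helix factor, was at 2612 CPM against 1048 CPM, and Zeb2, a zinc-finger factor of migrating interneurons, at 1085 CPM against 439 CPM, each higher in 17 of 17 mice. Maf, better known from medial interneurons, was at 217 CPM, above the 151 CPM of other Adarb2 nuclei and below the 287 CPM of Sst or Sox6 nuclei.

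Neuropeptide precursors other than Vip and Sst summed to 313 CPM in Vip nuclei and 167 CPM in Adarb2 nuclei without Vip, with 8 of 11 higher. Vip itself, the gene of the rule, was at 715 CPM (SD 191), from 420 CPM in OTV:Malat1 mouse 2 to 1100 CPM in the library labelled Malat1 ASO replicate 1. Crh was at 55.2 CPM against 3.36 CPM, and it was higher in 16 of 17 mice and listed at 0 in 1 mouse. Cck, the cholecystokinin precursor that marks a basket-cell type of Vip neuron, was at 96.4 CPM against 54.0 CPM and higher in 13 of 17 mice. Npy, a peptide of other interneurons, was at 46.7 CPM against 61.9 CPM, with the Vip nuclei higher in 6 of 17 mice. Peptide processing genes went different ways: Pcsk2, a convertase that cuts precursors, was at 408 CPM against 281 CPM, Pam, which amidates peptides, at 796 CPM against 527 CPM, and Cadps, a priming factor of dense-core vesicles, at 1225 CPM against 1467 CPM.

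Genes used to divide Vip neurons into subtypes ranged from a UMI in most Vip nuclei to a UMI in few. Synpr had a UMI in 378 of the 451 nuclei (83.8%), Igf1 in 281, Cnr1 (the cannabinoid receptor) in 254 and Prox1 in 228. Cck had a UMI in 134 nuclei (29.7%), Grpr, the receptor of gastrin-releasing peptide, in 85 (18.8%), and Crh in 82 (18.2%). Among the less often detected genes, Cxcl14 had a UMI in 69 nuclei, Tac2 in 62, Penk in 62, Calb2 in 40, Htr3a in 39 and Chat in 27. A UMI is not read as membership of a subtype, since other classes had them too. Cxcl14 was seen in 15.3% of Vip nuclei against 4.85% of Adarb2 nuclei without Vip and 1.44% of excitatory nuclei, Penk in 13.7% against 6.37% and 3.88%, and Tac2 in 13.7% against 1.86% and 1.15%. Calb2 was seen in 8.87% against 2.74% and 2.30%, and Htr3a in 8.65% against 1.69% and 0.111%. Adarb2 nuclei without Vip, at a median depth of 4500 UMIs, had a UMI of Grpr in 1.22%, of Crh in 1.38%, of Chat in 0.582% and of Cck in 20.4%. After thinning to 2000 UMIs, which kept 440 of the Vip nuclei and 3520 of the others, Grpr was seen in 10.96% against 0.694%, Crh in 10.7% against 0.803% and Cck in 17.1% against 10.3%. Excitatory nuclei had a Cck UMI in 31.1% unthinned, within the interval for Vip nuclei (25.5 to 34.2), and in 11.9% thinned.

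Some subtype genes met in the same nuclei more often than the product of their shares gives. Crh and Cxcl14 shared 28 nuclei where the product gives 12.5, Tac2 and Cxcl14 shared 22 against 9.49, and Tac2 and Htr3a, a serotonin-gated channel, shared 15 against 5.36. Cck and Htr3a shared 22 nuclei against 11.6. Other pairs met less often: Cck and Calb2, the 2 markers that classically divide Vip neurons, shared 8 nuclei against 11.9, and Crh and Calb2 shared 4 against 7.27. These counts are small and no test was made of them. All genes of a nucleus share its depth.

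Receptors for neuromodulators summed to 2597 CPM in Vip nuclei and 1589 CPM in other Adarb2 nuclei, with 16 of 21 higher. Chrm3, a muscarinic acetylcholine receptor, was at 865 CPM (SD 169) against 402 CPM, and Cnr1 at 317 CPM (SD 98.8) against 154 CPM, each higher in 17 of 17 mice. Htr2c, a serotonin receptor, was at 435 CPM against 367 CPM, which is within its spread over mice (SD 117), and at 138 CPM in Sst or Sox6 nuclei. Chrm2, another muscarinic receptor, was lower, at 43.1 CPM against 196 CPM. Hcrtr2, a receptor for the wake-promoting orexin peptides, was at 144 CPM against 6.19 CPM in Sst or Sox6 nuclei, but Adarb2 nuclei without Vip in cluster 1 had 162 CPM.

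Genes with the largest ratios between Vip nuclei and other classes are given next, of which Grpr, Cp and Oprd1 are also members of fixed lists. Grpr had the largest ratio to Adarb2 nuclei without Vip among genes of 50 CPM or more, at 63.7 CPM (SD 25.9) against 3.19 CPM. Fbln2, an extracellular matrix protein, was at 58.0 CPM against 4.71 CPM, Wnt5b, a secreted Wnt ligand, at 126 CPM against 18.7 CPM, and Elfn1, a synaptic adhesion protein known to make excitatory inputs facilitating, at 97.2 CPM against 16.5 CPM. Each of these was higher in Vip nuclei in 17 of 17 mice. Cp, the copper ferroxidase ceruloplasmin, was at 48.7 CPM (0 to 173 over mice) against 6.12 CPM and higher in 15 of 17 mice, although the iron handling list it belongs to summed to 455 CPM against 397 CPM. Against Sst or Sox6 nuclei, Egfr, a growth factor receptor, was at 517 CPM against 31.6 CPM and Sorcs3, a sorting receptor, at 1497 CPM against 64.1 CPM. In the other direction Moxd1 was at 0.560 CPM against 115 CPM, Oprd1, the delta opioid receptor, at 1.19 CPM against 113 CPM, and Eya4 at 4.07 CPM against 233 CPM.

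**Figure D2:**
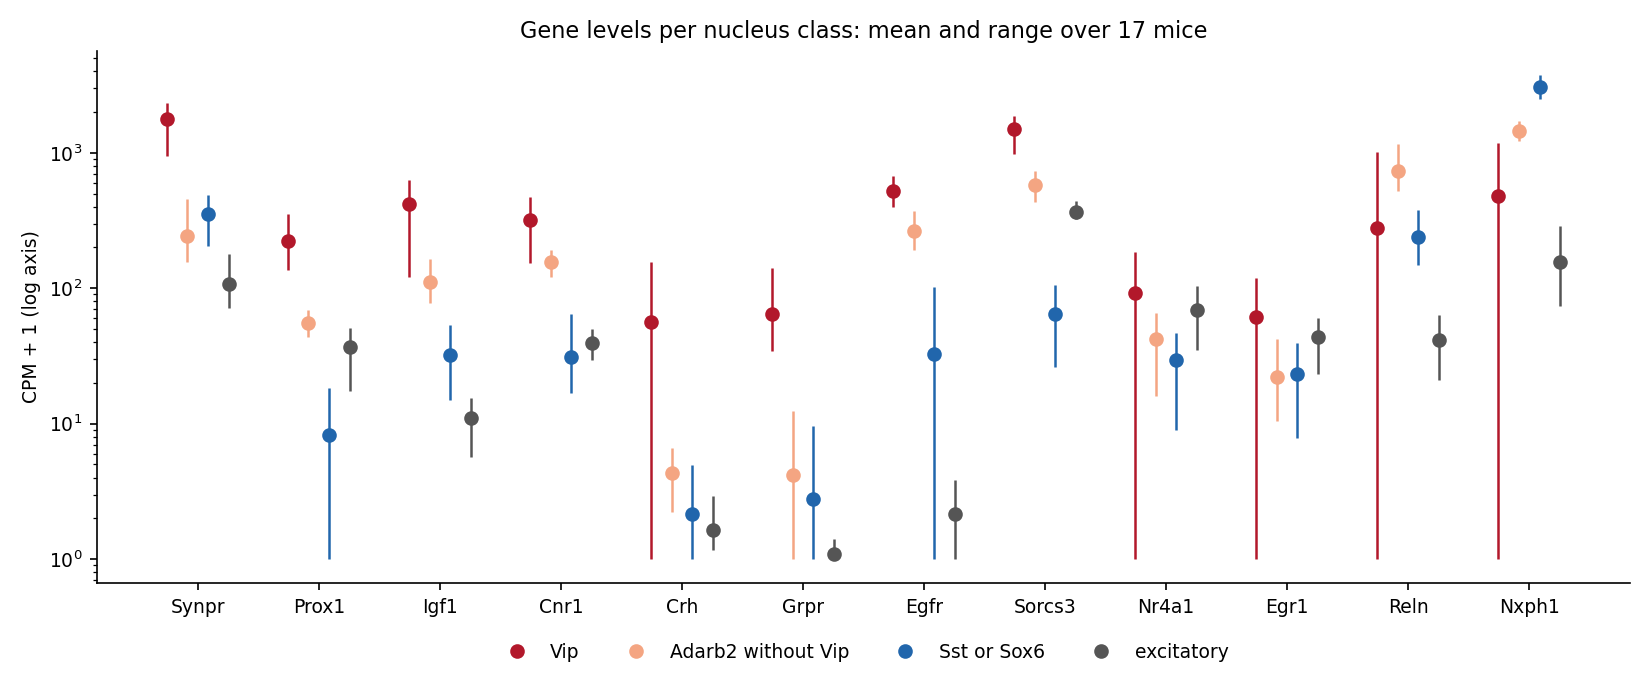
Levels of 12 genes (CPM) in Vip nuclei, Adarb2 nuclei without Vip, Sst or Sox6 nuclei and excitatory nuclei, as the mean and the range over 17 mice. Synpr and Prox1 in Vip nuclei lie above the range of both other interneuron classes in all mice.

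Receptors for GABA and glutamate were spread less evenly. The 17 GABA synthesis, transport and receptor genes outside the rule summed to 5013 CPM in Vip nuclei and 6025 CPM in other Adarb2 nuclei, with 3 of 17 higher. Gabrg3, a GABA receptor subunit, was at 1409 CPM (SD 261) against 1808 CPM and lower in 16 of 17 mice. The 19 glutamate receptor genes summed to 17581 CPM against 16407 CPM, with 10 of 19 higher. Among them, Grm7, a presynaptic metabotropic glutamate receptor, was at 2689 CPM (SD 433) against 1235 CPM and higher in 17 of 17 mice. Grin2b, an NMDA receptor subunit, was at 1346 CPM against 951 CPM, also in 17 of 17 mice, and the kainate receptor subunit Grik2 at 3097 CPM against 2568 CPM in 16 of 17.

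Immediate early genes, which neurons transcribe within minutes of activity, summed to 590 CPM in Vip nuclei, 289 CPM in Adarb2 nuclei without Vip, 273 CPM in Sst or Sox6 nuclei and 814 CPM in excitatory nuclei. Fos was at 49.8 CPM (0 to 128 over mice) against 12.3 CPM in other Adarb2 nuclei and higher in 16 of 17 mice. Egr1 was at 60.4 CPM against 21.2 CPM and higher in 16 of 17, and Nr4a1 at 91.6 CPM against 41.1 CPM and higher in 15 of 17. Nr4a3 was less even over mice, at 61.2 CPM against 27.1 CPM, higher in 13 of 17 and listed at 0 in 2. Across the list, 14 of 15 members were higher than in other Adarb2 nuclei, 13 of 15 higher than in Sst or Sox6 nuclei and 6 of 15 higher than in excitatory nuclei. Homer1, 1 member of the list, was at 414 CPM in excitatory nuclei and 185 CPM in Vip nuclei. No test of these class differences was made. By group the list summed to 696 CPM (543 to 908 over mice) in saline and 651 CPM (417 to 858) in ASO mice. It summed to 501 CPM (341 to 641) in anti-TfR:Malat1 and 543 CPM (431 to 672) in OTV:Malat1 mice. The ranges overlapped, and the sum was not tested between groups.

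Because these genes and Vip are textbook targets of the activity-regulated factor CREB, the 250 bases upstream of their RefSeq starts were searched for TGACG, the half-site of the cAMP response element, on both strands (CGTCA on the other), and for the full site TGACGTCA, which contains it. The sequences of Vip, Fos and Nr4a1 are shown from RefSeq on GRCm38.p6, 5′ to 3′ on the plus strand, with the half-sites in capitals.
Vip, chr10:5638968-5639217: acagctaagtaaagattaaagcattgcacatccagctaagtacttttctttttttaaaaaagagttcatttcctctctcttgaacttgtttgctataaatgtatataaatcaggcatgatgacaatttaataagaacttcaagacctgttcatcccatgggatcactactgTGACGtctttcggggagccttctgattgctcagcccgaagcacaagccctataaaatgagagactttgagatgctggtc
Fos, chr12:85473640-85473889: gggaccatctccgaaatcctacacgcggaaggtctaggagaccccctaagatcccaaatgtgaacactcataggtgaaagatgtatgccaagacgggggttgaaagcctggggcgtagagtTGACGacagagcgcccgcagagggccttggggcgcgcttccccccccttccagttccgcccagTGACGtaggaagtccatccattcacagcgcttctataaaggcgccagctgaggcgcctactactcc
Nr4a1, chr15:101266596-101266845: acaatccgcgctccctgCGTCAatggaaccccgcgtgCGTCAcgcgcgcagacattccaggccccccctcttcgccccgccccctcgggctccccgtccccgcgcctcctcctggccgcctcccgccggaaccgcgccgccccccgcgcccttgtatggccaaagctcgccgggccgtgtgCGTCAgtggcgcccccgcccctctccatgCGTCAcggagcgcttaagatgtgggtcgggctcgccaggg
Vip had 1 half-site, starting at base -79 counted from the start of transcription, Fos had 2 (-129 and -66) and Nr4a1 had 4. A half-site was found for 10 of the 10 immediate early genes whose promoters matched the table (of 15 listed), counting any start of a gene, and for 7 of 10 neuropeptide precursors. Counted in the same way over any start, it occurred for 5347 of all 27025 genes in the table (19.8%). The full site occurred for 478 genes (1.77%), for 1 of the 10 immediate early genes (Dusp1) and for 1 of the 10 neuropeptide precursors (Sst). Of the 15 genes that stood highest in Vip nuclei against other Adarb2 nuclei, 10 matched, 3 held a half-site (Grpr, Plpp4 and Rnf144b) and 0 the full site. A match describes the letters of the window and is not a binding measurement.

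Malat1, the target RNA, made up 5.59%, 5.12%, 5.71% and 3.09% of the UMIs in Vip nuclei of the saline mice and 3.20%, 3.39% and 2.72% in those of the OTV:Malat1 mice. The ASO mice had 5.11%, 4.17%, 5.50% and 3.37%, and the anti-TfR:Malat1 mice 3.40%, 4.46%, 5.34%, 5.28%, 4.17% and 3.92%. Every OTV:Malat1 mouse lay below every anti-TfR:Malat1 mouse, but OTV:Malat1 mouse 2 (exact 95% interval 3.28 to 3.51) and anti-TfR:Malat1 mouse 1 (3.31 to 3.49) cannot be told apart within counting error, and saline mouse 4 lay within the OTV:Malat1 range. As a percent of the saline mean, the group means were 93.0% with the ASO (89.1% without the library labelled Malat1 ASO replicate 1), 90.8% with anti-TfR:Malat1 and 63.6% with OTV:Malat1. In the median nucleus, averaged over mice, Malat1 took 4.69% of the UMIs in saline and 3.05% in OTV:Malat1 mice.

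**Figure D3:**
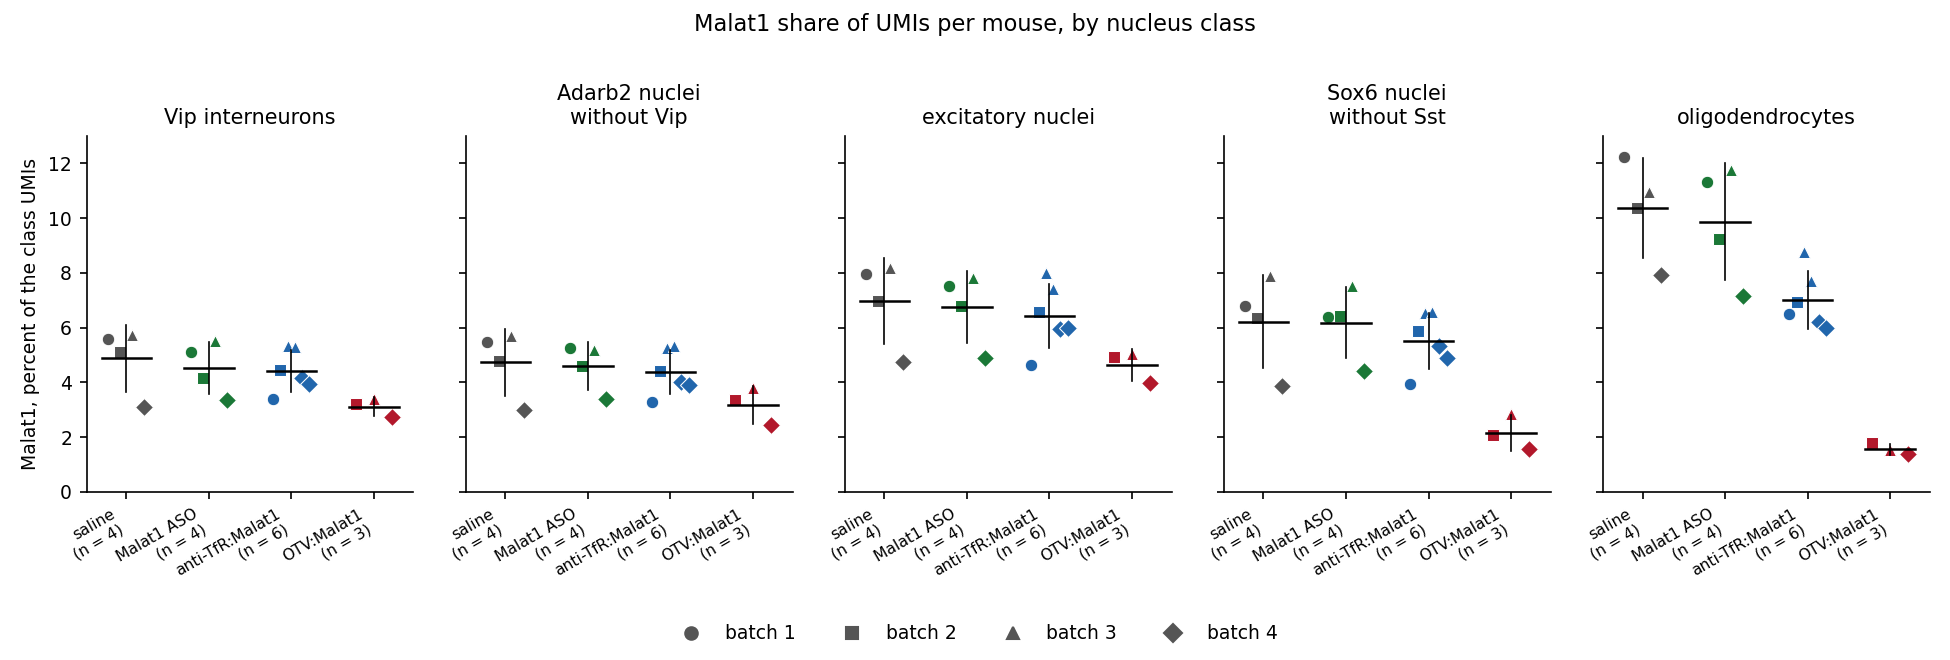
Malat1 as a percent of the UMIs of each nucleus class (panels: Vip, Adarb2 without Vip, excitatory, Sox6 without Sst, oligodendrocytes), 1 point per mouse with the deposited batch as marker shape, the mean as a line and the SD as a bar. In Vip nuclei the 3 OTV:Malat1 mice sit between 2.72% and 3.39%, below all anti-TfR:Malat1 mice, and saline mouse 4 at 3.09% lies within that range.

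On the log2(CPM + 1) scale, the difference between OTV:Malat1 and anti-TfR:Malat1 mice was -0.50 (3 against 6 mice, exact two-sided permutation p = 0.0238, the smallest this design allows, adjusted p = 0.0952 over 4 comparisons). The 3 OTV:Malat1 mice were below all 6 others, as were 35 of 2198 genes (1.59%). Within the deposited batches the difference was -0.48, -0.65 and -0.57 (mean -0.57, exact p = 0.111, the smallest possible there). Against saline it was -0.62 (3 against 4 mice, exact p = 0.171, adjusted p = 0.343), and within batches 2, 3 and 4 -0.68, -0.75 and -0.18. The mice of batch 4 had 2.72% to 4.17% of UMIs in Malat1 and were the lowest of the saline, ASO and OTV:Malat1 groups, against batch means of 4.70%, 4.24% and 5.04% in batches 1 to 3; the part of batch in these differences beyond the within-batch values was not tested. The ASO differed from saline by -0.09 (4 against 4 mice, exact p = 0.686), and by a mean of -0.09 within batches (exact permutation p = 0.375, smallest possible 0.125). Without the library labelled Malat1 ASO replicate 1 the ASO difference was -0.15 (exact p = 0.629). The anti-TfR:Malat1 mice differed from saline by -0.12 (6 against 4 mice, exact p = 0.6). In nuclei with 2 or more Vip UMIs the OTV:Malat1 difference was -0.42 from anti-TfR:Malat1 (exact p = 0.0476) and -0.54 from saline (exact p = 0.114). None of the 4 comparisons passed adjustment. The ASO difference was 0.00 without saline mouse 3 and 0.05 without ASO mouse 4.

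Fits across all genes, of 10 and of 17 mice, gave Malat1 values below saline and no adjusted p under 0.05. In edgeR's quasi-likelihood test on the 10 mice with 20 or more Vip nuclei (2 saline, 3 ASO, 4 anti-TfR:Malat1 and 1 OTV:Malat1), Malat1 differed from saline by -0.75 on the log2 scale with OTV:Malat1 (SE 0.21, adjusted p = 0.345), -0.31 with anti-TfR:Malat1 (adjusted p = 0.997) and -0.37 with the ASO (adjusted p = 0.996), or -0.56 without the library labelled Malat1 ASO replicate 1 (adjusted p = 0.373). The OTV:Malat1 group is a single mouse there, and its spread is assumed to be that of the other groups. That mouse is of batch 3 and the 2 saline mice are of batches 1 and 2, so no batch holds both. Saline mouse 4, the saline mouse lowest in Malat1, is not among these 10 mice. With all 17 mice, a choice made after the data were seen, the differences were -0.69 (SE 0.19, adjusted p = 0.264) with OTV:Malat1, -0.15 with anti-TfR:Malat1 and -0.13 with the ASO (-0.20 without the library labelled Malat1 ASO replicate 1), against -0.31 and -0.37 in the 10 mice. Without saline mouse 4 the OTV:Malat1 difference in that fit was -0.87 (adjusted p = 0.0458). In nuclei with 2 or more Vip UMIs it was -0.46 in the 10 mice (adjusted p = 0.664) and -0.57 in the 17 (adjusted p = 0.611), against anti-TfR:Malat1 -0.24 and -0.43, and for the ASO against saline -0.24 and -0.13. Adjusted p for OTV:Malat1 against saline ranged from 1.2e-10, when 1 mouse was set against 2 with 1 residual degree of freedom, to 0.999 over the alternatives.

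Within the same mice, the OTV:Malat1 difference in Vip nuclei had about the size of that in Adarb2 nuclei without Vip and in excitatory nuclei, and it was smaller than in Sox6 nuclei without Sst and in oligodendrocytes. As a percent of saline, Malat1 with OTV:Malat1 was 63.6% in Vip nuclei, 67.4% in Adarb2 nuclei without Vip, 66.6% in excitatory nuclei, 59.7% in Sst nuclei, 34.6% in Sox6 nuclei without Sst and 15.0% in oligodendrocytes. The within-mouse difference between Vip and other Adarb2 nuclei shifted by -0.07 (log2, exact p = 0.457) with OTV:Malat1 and by -0.03 (exact p = 0.286) with anti-TfR:Malat1 against saline. That between Vip and oligodendrocyte nuclei shifted by 2.11 with OTV:Malat1 (3 of 3 mice above all saline mice, exact p = 0.0571, adjusted p = 0.229 for 12 tests) and by 0.44 with anti-TfR:Malat1 (6 of 6 above, exact p = 0.00952, adjusted p = 0.114). Against Sox6 nuclei without Sst, a class added after the data were seen, it shifted by 0.91 with OTV:Malat1 (3 of 3 above, exact p = 0.0571, adjusted p = 0.183 for 16 tests) and by 0.03 with anti-TfR:Malat1. The p-values of 0.0571 and 0.00952 are the smallest that the numbers of mice allow, and no adjusted p was under 0.05.

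The shift in single nuclei was measured after thinning each to 1000 UMIs, which left out 0 nuclei, as the share under 30 Malat1 UMIs, the 10th percentile of saline Vip nuclei. That share was 2.27%, 5.56%, 0% and 31.6% in the saline mice and 38.5%, 45.8% and 63.2% in the OTV:Malat1 mice. The groups did not overlap at this setting, and the means were 9.85% (SD 14.7) and 49.2% (SD 12.7), a difference of 39.3 points (3 against 4 mice, exact p = 0.0571, adjusted p = 0.114; this is the smallest p of the design). They overlapped at each of the 3 other settings run, where saline mouse 4 stood at 31.6% against 23.1%, 37.5% and 31.6% in the OTV:Malat1 mice (500 UMIs), at 38.9% against 23.1%, 34.8% and 52.9% (2000 UMIs) and at 73.7% against 53.8%, 58.3% and 63.2% (25th percentile of saline). The differences there were 20.99, 27.2 and 33.6 points (exact p = 0.171, 0.171 and 0.229). The ASO mice averaged 14.9% (SD 14.9) and the anti-TfR:Malat1 mice 18.4% (SD 14.8), with single mice from 0% to 33.3% and from 2.22% to 39.4%. The ASO difference from saline was 5.01 points, and 7.93 points without the library labelled Malat1 ASO replicate 1 (exact permutation p = 0.629 in both). OTV:Malat1 exceeded anti-TfR:Malat1 by 30.7 points (3 against 6 mice, exact p = 0.0476, adjusted p = 0.114), with 2 of 3 mice above all 6. The saline mouse with the high share was the one of batch 4. The cut was taken from the saline nuclei with mice weighted equally, so the saline mean is set beforehand near the percentile chosen. The permutation did not set the cut anew, so its p-values against saline are descriptions.

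**Figure D4:**
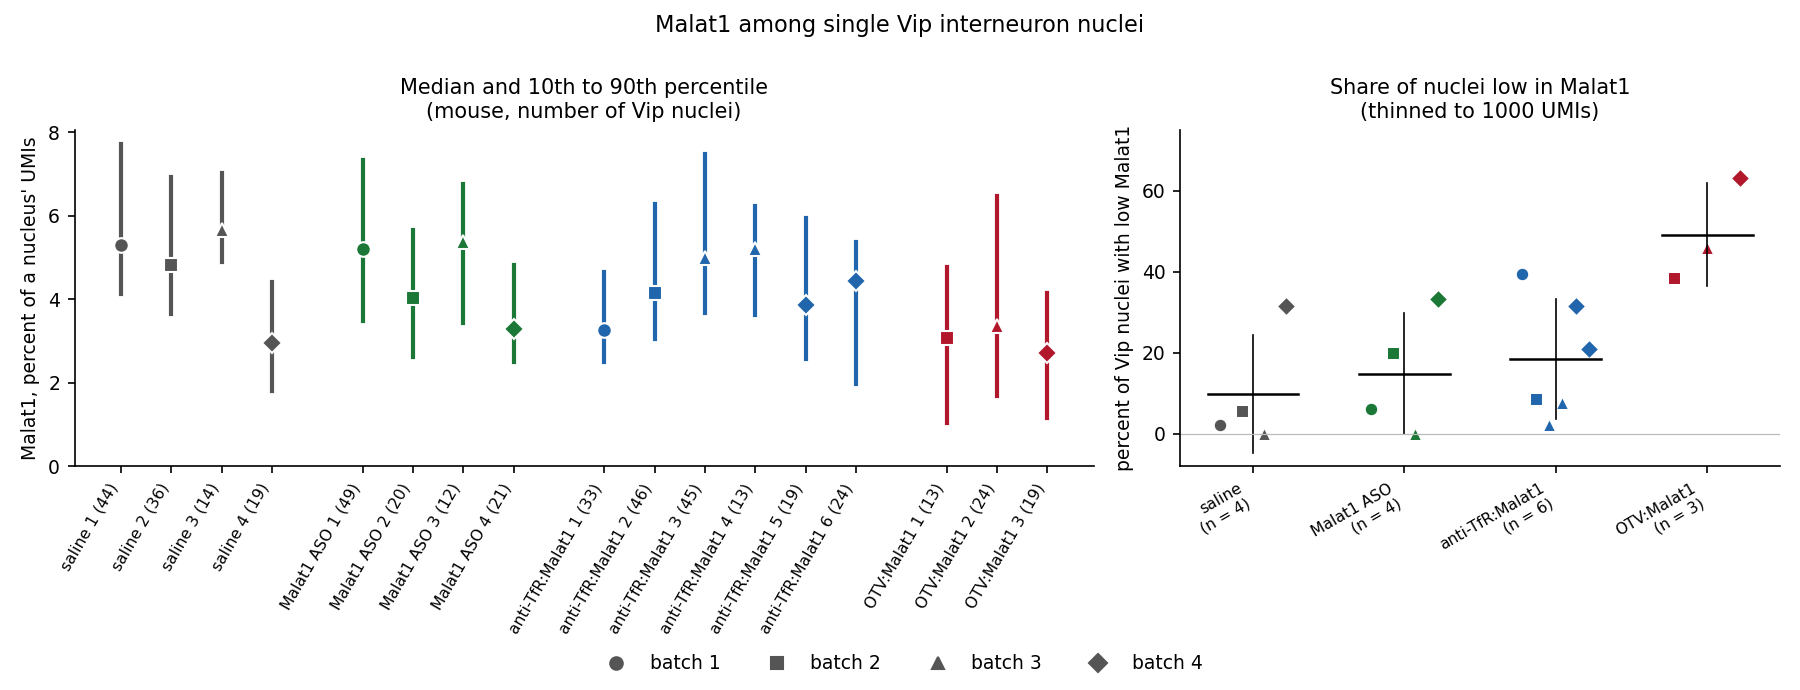
Left, Malat1 as a percent of the UMIs of single Vip nuclei, as the median and the 10th to 90th percentile of each mouse; right, the percent of each mouse's Vip nuclei with under 30 Malat1 UMIs after thinning to 1000 UMIs. The OTV:Malat1 mice lie at 38.5% to 63.2%, and the saline mice at 0% to 31.6%, a separation that is absent after thinning to 500 or 2000 UMIs or with the 25th percentile.

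The number of Vip nuclei showed no difference between groups that passed a test. They made up 3.83% (SD 1.13) of GABAergic nuclei in saline, 3.72% (SD 1.90) in ASO, 4.45% (SD 2.11) in anti-TfR:Malat1 and 3.09% (SD 0.640) in OTV:Malat1 mice, with adjusted exact permutation p from 0.838 to 0.886. Without the library labelled Malat1 ASO replicate 1, which had 6.36%, the ASO difference from saline went from -0.105 to -0.983 points (exact permutation p = 0.286). Batch means were 5.53%, 3.79%, 3.50% and 3.39%, and the median depth of GABAergic nuclei ran from 3672 to 6372 UMIs over mice. When GABAergic nuclei were first thinned to 2000 UMIs, the means were 3.87% in saline and 1.66% in OTV:Malat1 mice, a difference of -2.21 points (3 against 4 mice, exact permutation p = 0.229). These means rest on 9, 15, 3 and 5 Vip nuclei in the saline mice and 1, 5 and 5 in the OTV:Malat1 mice. After thinning, 161 to 274 GABAergic nuclei were left in each of these mice. Vip nuclei with 2 or more Vip UMIs were 55.0% (SD 19.0) of all Vip nuclei in saline, 59.2% (SD 11.4) in ASO, 57.6% (SD 7.92) in anti-TfR:Malat1 and 39.1% (SD 8.87) in OTV:Malat1 mice, a description, since Vip is in the rule.

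**Figure D5:**
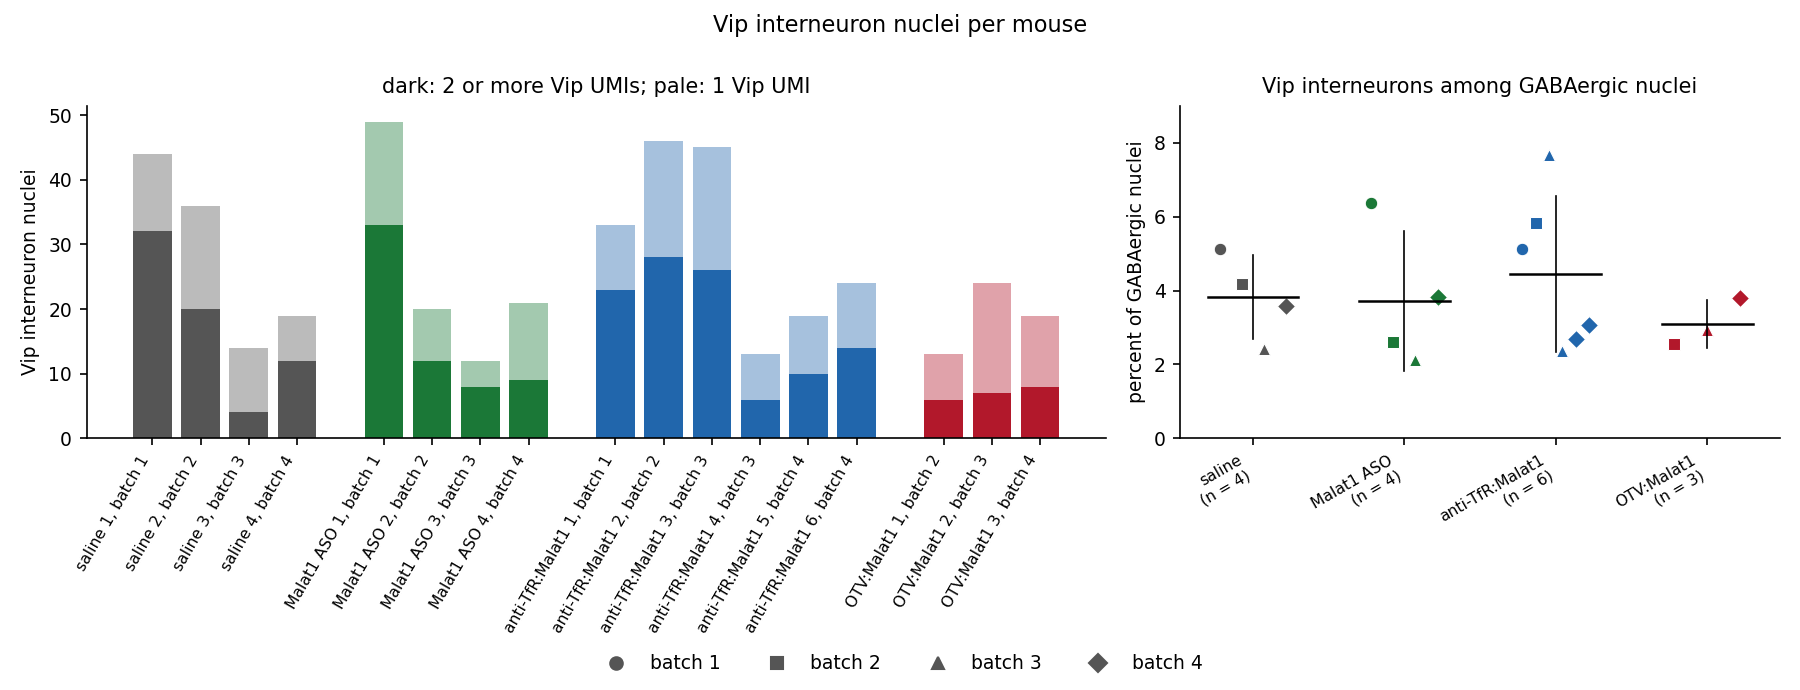
Left, the number of Vip nuclei per mouse, with those holding 2 or more Vip UMIs dark and those holding 1 pale; right, Vip nuclei as a percent of GABAergic nuclei per mouse. Counts run from 12 to 49 nuclei, and the 4 groups overlap in the share.

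Malat1 was called in none of the 4 comparisons in the fits of 10 and 17 mice, few other genes were, and those with OTV:Malat1 rested on 1 mouse. In edgeR's fit on mice with 20 or more nuclei, at adjusted p under 0.05, 6 of 4615 genes (0.13%) passed between OTV:Malat1 and saline, 4 (0.0867%) between OTV:Malat1 and anti-TfR:Malat1, 1 (0.0217%) between the ASO and saline and 0 between anti-TfR:Malat1 and saline, where 173 genes had an unadjusted p under 0.05. The fit on all 17 mice called 0 of 2198 genes in each comparison, with 67, 60, 133 and 148 genes at an unadjusted p under 0.05 for ASO, anti-TfR:Malat1 and OTV:Malat1 against saline and for OTV:Malat1 against anti-TfR:Malat1. Without the library labelled Malat1 ASO replicate 1 the ASO count at an unadjusted p under 0.05 went from 67 to 112 in the 17 mice and from 151 to 251 in the 10. With DESeq2 the 10 mice gave 0, 0, 1 and 11 calls and the 17 mice 0 in each. Those 11 were all lower with OTV:Malat1 than with anti-TfR:Malat1, whereas the 4 of edgeR were all higher.

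The fit of 10 mice called fewer genes in both comparisons of OTV:Malat1 when batch or replicate number was a block, as given below. It sets 1 OTV:Malat1 mouse, of batch 3, against saline mice 1 and 2, of batches 1 and 2, so no batch holds both. The spread of the OTV:Malat1 mouse is taken from the other groups. The 5 genes (0.108% of those tested) called higher in that mouse were Ptprm (log2 difference from saline 2.11, adjusted p = 0.00454), Nxph1 (2.44, adjusted p = 0.00454), Cacna2d1 (1.67, adjusted p = 0.0147), Unc5d (1.84, adjusted p = 0.0493) and Reln (1.93, adjusted p = 0.0493). Neto1, an auxiliary subunit of glutamate receptors, was called lower, at -2.67 (adjusted p = 0.0493), but stood at 57.6, 43.1 and 272 CPM in the 3 OTV:Malat1 mice and 220, 310, 117 and 156 CPM in the saline mice, which overlap. Ptprm, a receptor phosphatase of cell adhesion, was at 788, 1023 and 870 CPM in the OTV:Malat1 mice and 151, 304, 23.4 and 397 CPM in the saline mice, so that all 3 lay above all 4, as did 101 of 2198 genes (4.6%). Reln was at 269, 1012 and 453 CPM against 298, 189, 93.7 and 781 CPM, and these ranges overlapped. All 5 were higher in Adarb2 nuclei without Vip than in nuclei with 2 or more Vip UMIs: Ptprm was at 1140 CPM without Vip, 746 CPM with 1 Vip UMI and 80.9 CPM with 2 or more, and Nxph1, a secreted synaptic ligand, at 1414, 885 and 71.9 CPM.

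The single OTV:Malat1 mouse in that fit, replicate 2, had 24 Vip nuclei of which 17 held 1 Vip UMI. In those 17 nuclei Ptprm was at 1475 CPM, Nxph1 at 1693 CPM, Reln at 1460 CPM and Unc5d, a netrin receptor, at 1258 CPM, against 0, 0, 0 and 70.2 CPM in its 7 nuclei with 2 or more. With 2 or more Vip UMIs required, the fitted differences from saline turned negative for Ptprm, Nxph1, Cacna2d1 and Reln; for Ptprm, Nxph1 and Reln they rest on 0 UMIs in those 7 nuclei and give no fold. Gm32647, a predicted noncoding gene called lower with the ASO (-6.19, adjusted p = 0.000194) and higher with OTV:Malat1 than with anti-TfR:Malat1 (2.99, adjusted p = 0.00648), was at 349, 122, 0 and 0 CPM in the saline mice. In the ASO mice it was at 4.56, 0, 48.1 and 0 CPM. ASO mouse 3 is not in the fit of 10 mice, so -6.19 rests on values at or near 0 and gives no fold. Gm32647 was at 373 CPM in Adarb2 nuclei without Vip, 274 CPM with 1 Vip UMI and 5.39 CPM with 2 or more. Without saline mouse 1 no gene was called for the ASO or for OTV:Malat1 against saline. Ptprm (1.81), Cacna2d1 (1.51) and Reln (1.81) also passed between OTV:Malat1 and anti-TfR:Malat1, and the 2 comparisons share the OTV:Malat1 mouse.

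Values that did not pass are given for the other comparisons. With the ASO, Htr1f, a serotonin receptor, differed by 1.51 (adjusted p = 0.221) and was at 160, 174, 72.2 and 185 CPM in the 4 mice against 46.9 to 60.8 CPM in saline. Nfib (1.01), A830018L16Rik (0.86), Sema6d (-1.12) and Neto1 (-1.06) also had small unadjusted p, and Sema6d passed with no filter on low counts (-1.19, adjusted p = 0.0288). Without the library labelled Malat1 ASO replicate 1 the count of calls stayed at 1, with Gm32647 at -8.15 (adjusted p = 0.0284), Htr1f at 1.56 (adjusted p = 0.293), Nfib at 1.03 and Sema6d at -1.35. The ASO mice then left, 2 and 4, had 0 CPM of Gm32647, so its value is fitted on 0 UMIs and gives no fold. In the fit of all 17 mice without that library, Htr1f was at 1.39, Nfib at 0.24 and Sema6d at -0.92, and none of the 4 passed (adjusted p from 0.901 to 0.985). With anti-TfR:Malat1, Adamtsl1 (2.24), Alkbh8 (1.86), Txndc16 (1.31), Gm32647 (-2.02), Gm2516 (-1.35) and 4930555F03Rik (-0.82) had the smallest unadjusted p, with adjusted p from 0.235 to 0.997. Gm32647 passed with no filter on low counts (-2.05, adjusted p = 2.9e-06), without saline mouse 2 (-2.53, adjusted p = 0.0087) or without anti-TfR:Malat1 mouse 2 (-3.02, adjusted p = 0.00236). Vip itself, which is in the rule and therefore described without a test, differed from saline by -0.07, -0.12 and -0.39 with the ASO, anti-TfR:Malat1 and OTV:Malat1 in the fit of all 17 mice, and by -0.41 with the ASO without that library.

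Tfrc, the gene of the transferrin receptor that imports iron, was too low for the fit. All mice carry the human knock-in and the genome used was mm10, so reads of human sequence may be missing from this count, which was not tested. It was at 12.9, 6.08, 46.9 and 56.8 CPM in the saline mice and 38.4, 10.8 and 0 CPM in the OTV:Malat1 mice, 39 UMIs in all 17 mice. Its mean was 24.2 CPM (SD 18.2) in Vip nuclei and 24.3 CPM in other Adarb2 nuclei. Neat1, a neighbouring nuclear noncoding RNA, was at 27.7 CPM or less in every mouse and listed at 0 in 10.

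The fixed lists held few called genes. Reln, in the list of Vip subtype genes, was the 1 member of any list that passed, with OTV:Malat1, against a background of 0.13% of genes. Of the 15 immediate early genes 5 were tested, 0 passed in any comparison, and the median difference with OTV:Malat1 was -0.86 in the 10 mice, with 1 OTV:Malat1 mouse, and 0.03 over the 2 members tested in the 17 mice, against -0.02 and 0.01 for all genes. The 20 interferon response genes were all too low to be tested, and summed to 56.3 CPM in Vip nuclei and 59.6 CPM in other Adarb2 nuclei. Of 14 p53 targets, genes that DNA damage switches on, 4 were tested and 0 passed. The lists of transcription regulators (8 of 14 tested), neuropeptides other than Vip and Sst (5 of 11), peptide processing (12 of 12), modulator receptors (11 of 21), glutamate receptors (18 of 19), GABA genes other than Gad1 and Gad2 (14 of 17), nuclear noncoding RNAs (9 of 11) and iron handling (3 of 14) had 0 members past the threshold in either direction. The 17 GABA genes summed to 4602 CPM (3936 to 4968) in saline, 5062 CPM (4067 to 5622) in ASO, 5015 CPM (4635 to 5670) in anti-TfR:Malat1 and 5495 CPM (5222 to 5730) in OTV:Malat1 mice. The OTV:Malat1 mice thus lay above all saline mice in this sum, which was not tested. In 101 of 2198 single genes (4.6%) they also lay above all saline mice. Lamp5 and Sncg interneuron markers, of which Reln gave most, summed to means of 437, 193, 273 and 715 CPM in saline, ASO, anti-TfR:Malat1 and OTV:Malat1 mice, with ranges that overlapped (93.7 to 923 CPM in saline, 327 to 1238 CPM in OTV:Malat1 mice). Caudal markers summed to 2317 CPM (1965 to 2523) in saline and 1725 CPM (1270 to 2194) in OTV:Malat1 mice, also overlapping, and neither of these sums was tested. Their part in the called genes was not tested beyond the values for nuclei with 2 or more Vip UMIs. Of markers of other cell types, the 4 excitatory markers outside the rule summed to 411 CPM (265 to 592 over mice), above the 249 CPM of Adarb2 nuclei without Vip and below the 999 CPM of excitatory nuclei. Camk2a, a kinase abundant in excitatory neurons, made up most of that sum, at 404 CPM against 243 CPM in Adarb2 nuclei without Vip, and was higher in 17 of 17 mice. By group the sum was 399 CPM in saline, 390 CPM in ASO, 447 CPM in anti-TfR:Malat1 and 380 CPM in OTV:Malat1 mice, and its part in the results was not tested. Mean sums of the 4 glial marker lists were larger with OTV:Malat1 than with anti-TfR:Malat1, the 2 groups compared above for Malat1 and for the share of nuclei low in it. Oligodendrocyte markers were at 208 CPM (127 to 345) against 112 CPM (77.2 to 152), and precursor markers at 65.5 CPM (18.1 to 140) against 20.2 CPM (0 to 44.1). Microglial markers were at 66.4 CPM (36.3 to 86.1) against 57.0 CPM (0 to 92.2). Astrocyte markers were at 26.0 CPM (18.1 to 38.4) against 2.65 CPM (0 to 9.22), the last without overlap. In saline mice these sums were 155, 25.2, 50.5 and 17.7 CPM, and their part in the results was not tested. In Vip nuclei 3 UMIs correspond to 32.3 to 57.6 CPM over the OTV:Malat1 mice and 14.3 to 74.0 CPM over the anti-TfR:Malat1 mice. The astrocyte sums therefore rest on a few UMIs, and their lack of overlap is not read as a difference. Over all mice, oligodendrocyte markers summed to 154 CPM (71.0 to 345 over mice), microglial to 55.3 CPM, precursor to 35.3 CPM, astrocyte to 12.1 CPM and endothelial to 4.12 CPM, and Flt1, Cldn5 and Cspg4 were at 0 in every mouse.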

How the data were processed

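Nuclei of the posterior brain of 17 mice were sequenced with the 10x Genomics single-nucleus assay. The authors deposited a matrix of raw UMI counts of 26131 genes in 284074 nuclei, with metadata holding a batch, cluster numbers, a doublet call and a predicted cell type with its deposited score. Per the submitters' processing notes, Cell Ranger 6.0.1, Seurat 4 and mm10 were used; their order, the count settings and the doublet caller are not given in the sources used here.

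UMIs were summed per mouse and class, so that mice and not nuclei are the replicates. The labels number the samples of a group without naming litters or cages, so p-values measure only the spread between these samples. edgeR 4.0.16 (quasi-likelihood test, TMM, filterByExpr, Benjamini-Hochberg adjustment over all genes tested, threshold 0.05) was fitted on mice with 20 or more Vip nuclei, all groups together, without a block (6 residual degrees of freedom). A fit on all 17 mice was added after the data were seen. Exact two-sided permutation tests used log2(CPM + 1), with a pseudocount of 1, or shares, and double the smaller tail. Alternatives were DESeq2 1.42.0, other size factors, no filter, blocks for batch or replicate number, 2 or more Vip UMIs, other thinning and leaving out each mouse. Scripts were tested on simulated data. R 4.3.3, Python 3.11.15, scipy 1.17.1 and matplotlib 3.10.9 were used.

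Genes were named by rule: always Malat1, Neat1, Tfrc and Vip; in each comparison up to 10 each way past adjusted p 0.05 without overlap in CPM, or, where under 3 passed, up to 3 each way by unadjusted p; up to 4 of each list; and up to 15 each way by the ratio between classes at 50 CPM or more. Other genes shown by Vip UMI count, in subtype counts or for comparison were chosen after their values were seen. The members and lists were chosen with earlier results of these data known. Fewer nuclei of a type and less RNA per nucleus cannot be told apart in a summed count. Sequences came from RefSeq, GRCm38.p6.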

Additional observations from a re-analysis of the deposited data

Results flagged for a closer look

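In 3 cases the Malat1 level in Vip nuclei, relative to another class of the same mouse, differed between 2 treatments by an exact two-sided permutation test before adjustment. Relative to oligodendrocytes, Vip nuclei of anti-TfR:Malat1 mice stood 0.44 higher on the log2 scale than those of saline mice (6 against 4 mice, exact p = 0.00952, adjusted p = 0.114, 6 of 6 mice above all saline mice). The same measure was 1.67 higher with OTV:Malat1 than with anti-TfR:Malat1 (3 against 6 mice, exact p = 0.0238, adjusted p = 0.143, 3 of 3 above). Relative to Sox6 nuclei without Sst it was 0.88 higher with OTV:Malat1 than with anti-TfR:Malat1 (3 against 6 mice, exact p = 0.0238, adjusted p = 0.127, 3 of 3 above). None passed adjustment. Among 18 sets of values examined for a mouse far from its group, none passed Dixon's 95% limit. Saline mouse 4 nevertheless had 3.09% of its Vip nuclei's UMIs in Malat1 against 5.12% to 5.71% in the other saline mice, and 31.6% of its nuclei were low in Malat1 against 0% to 5.56%.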

How the results depend on the processing

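The 4 Malat1 comparisons kept their direction in every edgeR and DESeq2 alternative run, over ranges of -0.56 to -0.01 (ASO), -0.44 to -0.05 (anti-TfR:Malat1) and -1.11 to -0.46 (OTV:Malat1) against saline and -0.75 to -0.24 for OTV:Malat1 against anti-TfR:Malat1. With only the 2 compared groups the OTV:Malat1 difference from saline was -0.81 and passed, but that fit holds 1 mouse against 2 and supports nothing. The limits are 12 to 49 nuclei per mouse, 3 OTV:Malat1 mice and 1 of them in the fit of 10 mice.

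Counts of called genes depended on the processing. For the ASO, with 1 call, DESeq2, the fit of 2 or more Vip UMIs, the replicate block and all 17 mice (with batch block, replicate block, 2 or more UMIs or DESeq2 too) gave 0, and no filter gave 5. For anti-TfR:Malat1, with 0 calls, no filter gave 2. For OTV:Malat1 against saline, with 6 (5 higher, 1 lower), DESeq2 gave 1, RLE size factors 3, no filter 14 (8 higher, 6 lower), only the 2 groups 30 (12 higher, 18 lower), 2 or more Vip UMIs 2 (both lower), and the batch block and all 17 mice (with batch block, 2 or more UMIs or DESeq2 too) 0. Against anti-TfR:Malat1, with 4 (all higher), DESeq2 gave 11 (all lower), no filter 18 (6 higher, 12 lower), 2 or more Vip UMIs 4 (all lower), only the 2 groups 7 (5 higher, 2 lower), the batch block 1, and all 17 mice (with batch block, replicate block, 2 or more UMIs or DESeq2 too) 0. The cause was not tested.

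The replicate block, a block on the shared replicate number, gave 0 calls in both comparisons of OTV:Malat1 and for the ASO in 10 mice, and 5 for OTV:Malat1 against saline in 17 mice. Same-numbered mice correlated at a median of 0.04 (-0.06 to 0.15, 3 of 21 pairs over 0.1), and other pairs at -0.0003 (3 of 85 over 0.1). The numbers were not taken to pair the mice. In the saline and ASO groups, however, the number matches the deposited batch, and their same-numbered pairs stood at 0.115, 0.007, 0.154 and 0.095. Under the block, Vip with anti-TfR:Malat1 was 0.0214 (10 mice) and 0.0557 (17 mice), and with the batch block 0.00936.

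Permuted within batches, the OTV:Malat1 to anti-TfR:Malat1 differences were -0.57 in Malat1, 1.62 against oligodendrocytes, 0.91 against Sox6 nuclei and 35.9 points in the low-Malat1 share, and the anti-TfR:Malat1 difference against oligodendrocytes was 0.41; the smallest p is then above 0.05. With 2 or more Vip UMIs, the OTV:Malat1 differences against Adarb2 nuclei without Vip turned to 0.0104 (saline) and 0.039 (anti-TfR:Malat1), and against excitatory nuclei to 0.0245 and 0.0373. The low-Malat1 share differed by -3.82 (ASO) and -3.88 points (anti-TfR:Malat1) when thinned to 500 UMIs, by -4.33 points for anti-TfR:Malat1 at 2000, and by 26.5 points for OTV:Malat1 against anti-TfR:Malat1 at the 25th percentile. Thinning before the rule turned the GABAergic share to 0.485 points (ASO) and -0.00681 points (anti-TfR:Malat1).

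With 2 or more Vip UMIs, Ptprm was -5.99 and -6.29, Reln -6.20 and -6.24, Cacna2d1 -0.97 and -0.95 (17 mice -1.10 and -0.82), against saline and anti-TfR:Malat1, and Nxph1 was -4.38; the values of Ptprm, Reln and Nxph1 are fitted on 0 UMIs in the OTV:Malat1 mouse and are no bounds. In 17 mice with 2 or more, Nfib was -0.0576 and A830018L16Rik -0.00738 (ASO), and Vip 0.0181 (OTV:Malat1 against anti-TfR:Malat1).

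Leaving out each mouse in turn gave 0 to 1 calls for the ASO, 0 to 2 for anti-TfR:Malat1, 0 to 7 for OTV:Malat1 against saline and 0 to 7 against anti-TfR:Malat1. In the fit of 10 mice, 0 genes were called without saline mouse 1 for the ASO or OTV:Malat1 against saline, 3 without ASO mouse 2 or anti-TfR:Malat1 mouse 6 for the latter, and, for OTV:Malat1 against anti-TfR:Malat1, 2 without anti-TfR:Malat1 mouse 6 and 7 without ASO mouse 4. Leaving out the OTV:Malat1 mouse gave no value there. The Malat1 differences in these refits ran from -0.56 to -0.01 (ASO), -0.44 to -0.07 (anti-TfR:Malat1), -0.87 to -0.61 (OTV:Malat1) and -0.61 to -0.34 (OTV:Malat1 against anti-TfR:Malat1), and in the permutation test, in that order, from -0.29 to 0.0455, -0.32 to -0.03, -0.82 to -0.53 and -0.57 to -0.41. Against oligodendrocytes they ran from -0.0916 to 0.0482, 0.36 to 0.50, 2.02 to 2.18 and 1.58 to 1.74. Against Sox6 nuclei the ranges were -0.14 to -0.0418, -0.0104 to 0.0524, 0.79 to 1.06 and 0.76 to 1.03. Against excitatory nuclei, anti-TfR:Malat1 ran from -0.0414 to 0.0142. Against Adarb2 nuclei without Vip, OTV:Malat1 ran from -0.16 to 0.00103 (saline) and -0.14 to 0.0274 (anti-TfR:Malat1), with the highest values without OTV:Malat1 mouse 2. The low-Malat1 share ran from -1.14 to 12.3 points (ASO), 32.3 to 46.5 (OTV:Malat1) and 23.7 to 36.1 (OTV:Malat1 against anti-TfR:Malat1), and the GABAergic share from -0.983 to 0.428 points (ASO) and -0.0184 to 1.06 (anti-TfR:Malat1). Vip ran from -0.74 to 0.0901 (ASO; in 17 mice 0.0881, 0.0699 and 0.0753 without saline mouse 1, ASO mouse 2 or ASO mouse 4) and -0.36 to 0.16 (anti-TfR:Malat1; 0.0367 in 17 mice without saline mouse 1). Gm32647 reached 0.43 with anti-TfR:Malat1 without saline mouse 1, and -3.12 between OTV:Malat1 and anti-TfR:Malat1 without OTV:Malat1 mouse 2, both in 17 mice.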
